A study of Mus musculus with 8 samples.

Results

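The Myc, Max and Mxd network comprises the 9 genes Myc, Mycn, Max, Mxd1, Mxd3, Mxd4, Mxi1, Mnt and Mga, and it was followed in NIH3T3 cells that received serum with or without cordycepin. The genes were taken by name, with every probe that the array design assigns to them, which gave 9 of 35715 names and 11 of 55681 probes. Each group was measured in the same immortalised line of mouse embryonic fibroblasts. All cells were first starved for 24 h in 0.5% serum. The cordycepin plus serum group (3 arrays) was exposed to 20 µM cordycepin for 90 min, by the sample titles, and to serum for 30 min. By the treatment protocol in the labels serum was added within that time, whereas the study's text places it after, so the total exposure is not settled. The serum group (3 arrays) received the DMSO vehicle and serum for 30 min. The no serum group (2 arrays) was a starved control that received the vehicle and no serum. Cordycepin is 3′-deoxyadenosine, an adenosine analogue that lacks the hydroxyl group needed to extend an RNA chain. No array held cells given cordycepin without serum, so its effect could be read in serum-treated cells only. Nothing in the labels says that the arrays of a group came from separate cultures, and p-values may therefore measure technical spread.

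MYC proteins are transcription factors of the basic helix-loop-helix leucine zipper type that bind DNA as a pair with MAX, at a short sequence called the E-box. The MXD proteins, MXI1, MNT and MGA compete for MAX and the same sites, and recruit corepressors where MYC recruits coactivators. Myc is a textbook immediate early gene with a short-lived mRNA, and MXD proteins are best known from cells that leave the cell cycle.

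Levels are given as normalised log2 signal, which is the log2 of the processed signal minus the 75th percentile of the same array. A value of 0 is therefore the 75th percentile, and each change is relative to it. The 75th percentile lay between 302.2 and 692 intensity units, 51.1 to 57.1% of probes were well above background and 0 spots were saturated. Correlations over probes were 0.992 to 0.995 within groups, and the cordycepin arrays correlated with the others at 0.966 to 0.976. A probe is said to be called where it met 2 conditions, an adjusted p under 0.05 (limma over 30859 probes, Benjamini-Hochberg) and a change of 1 log2 unit or more in either direction. In these cells all 10 fibroblast markers examined were well above background on all arrays. So were 3 of 5 endothelial, 2 of 6 smooth and skeletal muscle and 1 of 6 epithelial markers. Of 6 leukocyte markers 4 were above background on all arrays. The brightest probes of all 6 summed to a linear level of 31.3 to 39.4 times the 75th percentile with cordycepin. The sum was 17.7 to 20.3 with serum and 16.3 to 21.4 without serum. With cordycepin 2 of the 4 were called higher than with serum alone, as were 7.57% of all probes. Cd68, a lysosomal protein of macrophages, rose by 3.02. Cd79a rose by 1.39 at its brightest probe, and its other probe was not called (0.82, adjusted p = 0.165 by limma). The array design places the brightest of them at chr12:53180558-53180617 (mm9, plus strand) and gives no position for the other. Whether these probes read Cd79a was not tested. The brightest of the 3 Itgam probes read 3.82 to 4.82 over the 8 arrays, and the others −4.51 to −3.41. Ptprc, the pan-leukocyte marker CD45, was above background on at most 3 of 8 arrays. The part of these transcripts in the results below was not tested.

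The network did not move as a unit when cordycepin plus serum was compared with serum alone, which asks what the drug alters while cells respond to serum. Of the 9 genes, 8 had a probe that could be tested, and by the brightest probe of each gene 2 were called lower (Myc and Mycn), 1 was called higher (Mxd1) and 5 were not called. Over all probes tested, 2.98% were called lower and 7.57% higher. By adjusted p alone 5 of the 10 tested probes of the network passed, against 19.4% of all probes. The 5 included the other probe of Mxd1, which was lower with cordycepin (−0.58). The median log2 change was 0.03 for the 8 genes and 0.09 for all probes.

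**Figure D1:**
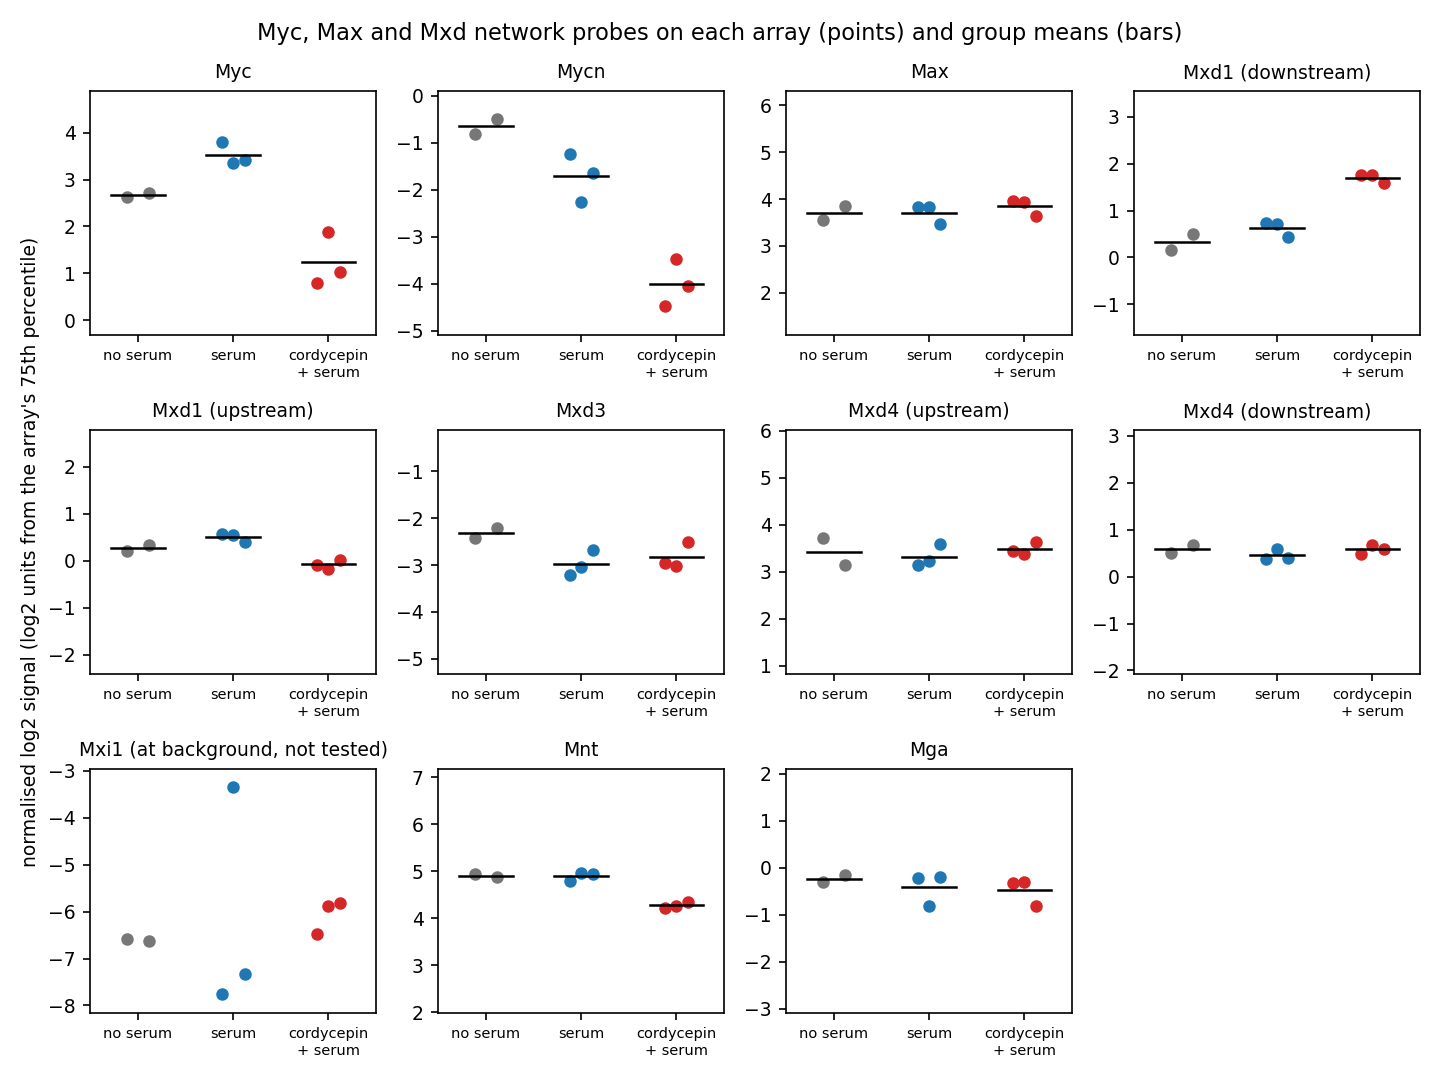
Normalised log2 signal of each of the 11 probes on the 8 arrays (points) by group, with the mean of each group as a bar. Every panel spans at least 5 log2 units, and the probe of Mxi1, which was above background on 1 array, has no bar. Myc and Mycn sit lowest in the cordycepin arrays, the downstream probe of Mxd1 sits highest there, and Max, Mxd4 and Mga overlap between all groups.

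Myc, the founding member of the family, was measured by a probe at chr15:61821417-61821476 (mm9, plus strand), printed on each array as 2 spots. The probe runs over the end of the reading frame into the 3′ untranslated region, and capitals mark the stop codon at bases 45 to 47 of its 60.
Myc: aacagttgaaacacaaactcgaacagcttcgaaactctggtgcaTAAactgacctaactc
Its normalised log2 signal was 0.79, 1.88 and 1.04 with cordycepin plus serum, 3.80, 3.35 and 3.41 with serum, and 2.63 and 2.72 without serum. Every cordycepin array lay below every array of both other groups, and the serum arrays lay above those without serum. The duplicate spots differed by at most 0.25 on any array.

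With cordycepin, Myc fell by 2.28 on the log2 scale against serum alone (SE 0.27, 95% interval −2.90 to −1.66), a 4.85-fold lower level with an adjusted p of 0.000567 by limma. The value lay between −2.60 and −2.06 when any 1 array was left out, and Myc was called lower under all 21 alternatives. In RNA from whole cultures, a lower level in every cell and a loss from some of the cells cannot be told apart.

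Mycn, the family member best known from neural and embryonic cells, was measured by a probe at chr12:12943193-12943252 (mm9, minus strand). The last 30 bases of the probe are shown to identify it.
Mycn: tagtatgacgctgatacataactaaatttg
The normalised log2 signal of Mycn was −4.48, −3.47 and −4.04 with cordycepin plus serum, −1.23, −2.25 and −1.65 with serum, and −0.81 and −0.49 without serum. The groups did not overlap, and their order differed from that of Myc, since the arrays without serum were the highest. All 8 values of Mycn were above background.

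Cordycepin lowered Mycn by a log2 change of −2.29 against serum alone (SE 0.31, 95% interval −3.01 to −1.57), a 4.89-fold difference with an adjusted p of 0.00126 by limma. The size of this change depended on the background correction, since it was −1.05 after a model-based correction (normexp), with the probe still called lower.

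Mxd1, which encodes the MAX partner MAD1, had 2 probes that moved in opposite directions. Both lie on the minus strand of chromosome 6 (mm9), with the upstream, 5′ probe at chr6:86599053-86599112 and the downstream, 3′ probe at chr6:86597190-86597249, so that their starts are 1863 bases apart on the genome. The last 30 bases of both are given because the result differs between them.
Mxd1 upstream: gcgcctttgcgttaaactgttttttatttt
Mxd1 downstream: gatgtttctttctgtaaatatggtgccaat
At the downstream probe the normalised log2 signal was 1.76, 1.76 and 1.58 with cordycepin plus serum, 0.73, 0.71 and 0.43 with serum, and 0.15 and 0.50 without serum. The cordycepin arrays were above all others there, and the remaining groups overlapped. At the upstream probe it was −0.08, −0.17 and 0.02 with cordycepin plus serum, 0.56, 0.54 and 0.40 with serum, and 0.21 and 0.34 without serum. Here the cordycepin arrays were the lowest.

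The downstream probe of Mxd1 rose by 1.08 with cordycepin (SE 0.14, 2.11-fold, adjusted p = 0.0010 by limma). The upstream probe changed by −0.58 (SE 0.11, 1.49-fold, adjusted p = 0.00662 by limma), which passed the adjusted p and not the minimum fold change. Within each array, the downstream minus the upstream value was 1.85, 1.93 and 1.56 with cordycepin plus serum, 0.17, 0.17 and 0.03 with serum, and −0.06 and 0.16 without serum. The cordycepin and serum groups differed by 1.65 in this quantity, with no overlap (exact permutation test, two-sided, p = 0.1, the smallest that 3 against 3 arrays allow). Among 4155 genes with several tested probes, 43 had probes past the adjusted p in both directions, or 1.03%.

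The call of Mxd1 as higher stood close to the minimum fold change. It was lost after normexp correction (0.99), without serum replicate 3 (0.98), with arrays centred on spike-in probes (1.04, adjusted p = 0.396 by limma), within the arrays of either row of the slide (1.03, adjusted p = 0.058, and 1.01, adjusted p = 0.123) and for the mean of both probes (0.25, adjusted p = 0.188).

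**Figure D2:**
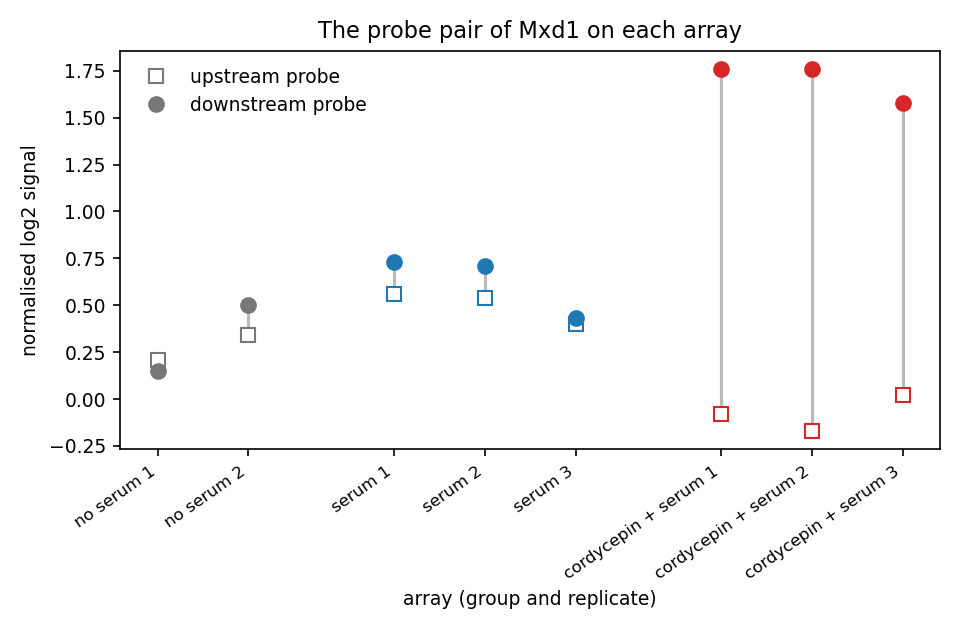
Normalised log2 signal of the upstream (open squares) and downstream (filled circles) probe of Mxd1 on each of the 8 arrays, with a line joining both probes of an array. The gap widened from between −0.06 and 0.17 on the 5 arrays without cordycepin to between 1.56 and 1.93 on the 3 cordycepin arrays; the distance within 1 array also depends on how brightly each probe hybridises, so only its change between groups is read.

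Mnt, which encodes the most widely expressed of the repressive MAX partners, was measured at chr11:74658915-74658974 (mm9, plus strand). The normalised log2 signal of Mnt was 4.22, 4.26 and 4.35 with cordycepin plus serum, 4.80, 4.96 and 4.94 with serum, and 4.95 and 4.87 without serum. The cordycepin arrays lay below all others by a narrow margin with little spread. The change with cordycepin was −0.62 (SE 0.10, 95% interval −0.86 to −0.38, 1.54-fold), with an adjusted p of 0.00351 by limma but under the minimum fold change. It lay between −0.68 and −0.59 when any 1 array was left out.

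Max, the common partner, was measured at chr12:78038272-78038331 (mm9, minus strand). The last 30 bases of the probe hold the letters of the polyadenylation signal AATAAA, in capitals.
Max: cccctttactataagaatataAATAAAaac
The normalised log2 signal of Max was 3.96, 3.93 and 3.64 with cordycepin plus serum, 3.83, 3.84 and 3.46 with serum, and 3.56 and 3.85 without serum. All groups overlapped. The log2 change with cordycepin was 0.13 with a 95% interval of −0.23 to 0.49 (adjusted p = 0.617 by limma), so the interval held no change as large as the minimum for a call. AATAAA or its variant ATTAAA occurred in 3 of the 11 probes (those of Max, Mxd3 and 1 of Mxd4) and in 13.7% of all probes.

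Mxd4, another MAX partner with a repressor domain, had 2 probes on chromosome 5 (mm9, minus strand), at chr5:34519323-34519382 and chr5:34519276-34519335, that overlap by 13 bases. The stretch they share is in capitals.
Mxd4 upstream: atcattccagaagtattAAATATCATTTCT
Mxd4 downstream: AAATATCATTTCTacaaatctcggcaggat
The upstream probe of Mxd4 gave 3.44, 3.39 and 3.64 with cordycepin plus serum, 3.15, 3.22 and 3.60 with serum, and 3.72 and 3.14 without serum. The downstream probe ranged from 0.49 to 0.68 with cordycepin plus serum, from 0.38 to 0.59 with serum and from 0.51 to 0.67 without serum. All groups overlapped at both probes, and the log2 changes with cordycepin were 0.16 (95% interval −0.27 to 0.60) and 0.13 (−0.13 to 0.39). The difference between both Mxd4 probes changed by 0.03 between cordycepin plus serum and serum (exact permutation test, two-sided, p = 0.9). Their starts are 47 bases apart, so this pair is no comparison for the more distant Mxd1 probes.

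Mxd3, the MXD member linked to dividing cells, gave −2.96, −3.02 and −2.52 with cordycepin plus serum, −3.21, −3.05 and −2.69 with serum, and −2.43 and −2.22 without serum (probe at chr13:55427000-55427059, mm9, minus strand). The arrays without serum were the highest, and the other groups overlapped. Its log2 change with cordycepin was 0.15 (95% interval −0.28 to 0.57, adjusted p = 0.624 by limma).

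Mga, which encodes a large MAX partner that also sits in a Polycomb complex, gave −0.33, −0.30 and −0.81 with cordycepin plus serum, −0.22, −0.82 and −0.20 with serum, and −0.31 and −0.15 without serum (probe at chr2:119792479-119792538, mm9, plus strand). The groups overlapped, and the log2 change of Mga with cordycepin was −0.07 (95% interval −0.55 to 0.42, adjusted p = 0.863 by limma). Mxi1, the close relative of Mxd1 to Mxd4, was well above background on 1 of 8 arrays (serum replicate 2, −3.35). The other arrays gave −7.76 to −5.81 for the Mxi1 probe at chr19:53450238-53450297 (mm9, plus strand), so it was not tested.

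**Figure D3:**
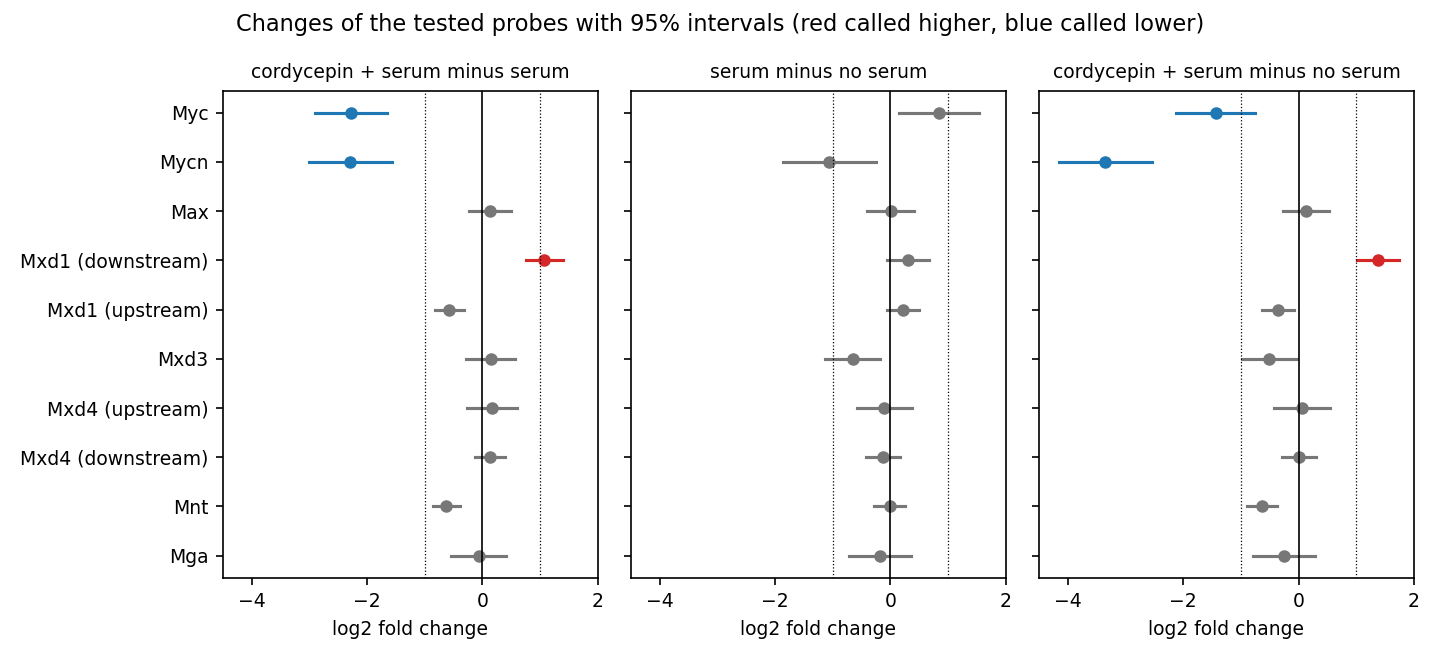
Log2 fold change (points) of the 10 tested probes with 95% intervals (lines) in the comparisons of all 3 groups; dotted lines mark a change of 1 in size. Myc and Mycn lie at −2.28 and −2.29 in the left panel, no probe is called in the middle panel, and Mycn reaches −3.35 in the right panel.

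The serum effect, serum alone against no serum, asks what 30 min of serum does to starved cells. None of the 8 tested genes was called (limma), against 1.77% of all probes in either direction, and at an unadjusted p under 0.05 there were 3, against 10.3% of all probes. Myc was higher by 0.84 on the log2 scale with serum (SE 0.30, unadjusted p = 0.0234, adjusted p = 0.321 by limma), and all serum arrays of Myc were above both arrays without serum. Mycn differed in the other direction, by −1.06 (SE 0.35, unadjusted p = 0.0163, adjusted p = 0.259 by limma), again without overlap. Mxd3 differed by −0.66 (SE 0.21, adjusted p = 0.227 by limma), or by −0.29 after normexp correction. The 95% intervals were −0.40 to 0.41 for Max, −0.06 to 0.66 for the downstream Mxd1 probe and −0.28 to 0.26 for Mnt.

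The cordycepin plus serum arrays were also set against the starved cells that received no serum, to see whether the levels returned to or passed those of unstimulated cells. This comparison shares its cordycepin arrays with the first, and its values are not independent of it. Here 2 genes were called lower (3.08% of all probes) and 1 higher (6.46% of all probes), and the median log2 change was −0.38 for the 8 genes and 0.07 for all probes. Mycn fell by 3.35 (SE 0.35, 10.2-fold, adjusted p = 0.000475 by limma), or by 1.84 after normexp correction. Myc fell by 1.44 below the level of starved cells (SE 0.30, 2.71-fold, adjusted p = 0.0138 by limma). That call of Myc was lost without no serum replicate 1 (adjusted p = 0.0691) or replicate 2 (adjusted p = 0.0862) and within either row of the slide (adjusted p = 0.171 and 0.062). The downstream probe of Mxd1 rose by 1.38 (SE 0.16, 2.59-fold, adjusted p = 0.000752 by limma), and the upstream probe differed by −0.35 (adjusted p = 0.0998). The call of Mxd1 was lost with spike-in centring (0.99), within row 2 of the slide (1.08) and for the mean of both probes (0.51). Mnt differed by −0.63 (adjusted p = 0.00748 by limma), under the minimum fold change. The probes of Max, Mxd3, Mxd4 and Mga gave adjusted p-values between 0.16 and 0.999.

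The E-box CACGTG, to which these proteins bind, was searched for in the promoters of the network itself. RefSeq promoter windows (GRCm38.p6, 250 bases before to 50 after the start) were at hand for 8 of the 9 genes (Max, Mga, Mnt, Mxd1, Mxd3, Mxd4, Mxi1 and Mycn). The letters read the same on both strands. They occurred in the windows of 3 of these 8 genes and of 8.09% of all 27025 genes with a window, or in 7.15% of all 32851 windows. The stretches around them, with the E-box in capitals, were chr11:74830789-74830818 (plus strand) for Mnt, chr12:76962234-76962263 (minus strand) for Max and chr5:34187912-34187941 (minus strand) for Mxd4.
Mnt: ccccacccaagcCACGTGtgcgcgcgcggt
Max: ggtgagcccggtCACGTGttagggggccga
Mxd4: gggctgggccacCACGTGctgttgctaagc
None of these 3 genes was called in any of the comparisons, and of the genes called, Mycn and Mxd1 had no match in their windows and Myc was not searched. A match is a run of letters and not evidence of binding.

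Genes around the network were described by lists from textbook knowledge, with the brightest tested probe of each gene. In none of the 8 lists was a gene called in the cordycepin effect, in which 2.98% of all probes were called lower and 7.57% higher. Of the other MYC and MLX family genes, 3 of 5 could be tested and 0 were called, with 0 at an unadjusted p under 0.05. Mycl, the third MYC gene, and Zbtb17, which encodes the MYC partner MIZ1, had no probe that passed the filter for testing. Mlx, the MAX-like partner of the MondoA branch, changed by −0.17 (SE 0.11, adjusted p = 0.365 by limma). All 14 coactivator genes of MYC were tested and 0 were called. Their changes ranged from −0.46 for the acetyltransferase Kat5 (adjusted p = 0.0238 by limma) to 0.23 for the scaffold Wdr5. Kat5 was the only 1 of the 14 to pass the adjusted p, against 19.4% of all probes.

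Among the 11 genes of the corepressors used by MXD proteins and MNT, 0 were called and 3 passed the adjusted p alone, which 19.4% of all probes did. The scaffold Sin3a had a log2 change of −0.56 (SE 0.12, adjusted p = 0.0136 by limma). Sap18, a subunit of the SIN3 complex, had a change of 0.99 (SE 0.17, adjusted p = 0.00422 by limma), just under the minimum. Sin3a was 0.41, 0.47 and 0.17 with cordycepin plus serum and 0.84 to 1.02 with serum, while Sap18 was 0.18 to 0.55 with cordycepin plus serum and −0.88 to −0.40 with serum, so neither gene overlapped between these groups. None of the 9 partners of MGA in its Polycomb complex passed the adjusted p, and they ranged from −0.18 to 0.45. At an unadjusted p under 0.05 there were 2 of the 9, against 31.1% of all probes. Sin3a, Sap18, Kat5 and Wdr5 were picked as the lowest and highest of their lists after the values were seen.

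Of 13 genes that control the turnover of MYC protein, 12 were tested and 0 were called. Of the 12, 1 passed the adjusted p, against 19.4% of all probes. That gene was Usp36, a deubiquitinase of the nucleolus that stabilises MYC, with a change of −0.72 at its brightest probe (SE 0.15, adjusted p = 0.0111 by limma). Another probe of Usp36 was called lower, at −1.09, and a further one changed by −0.52. Usp36 was also named after its values were seen. Among 9 genes of the Myc locus and regulators of Myc mRNA, 0 were called. Pvt1, the long non-coding RNA gene downstream of Myc, changed by −0.66 at its brightest probe (SE 0.13, adjusted p = 0.0076 by limma) and by 0.09 at its other tested probe (adjusted p = 0.745). The brightest Pvt1 probe read 1.83, 1.69 and 1.61 with cordycepin plus serum, 2.48, 2.33 and 2.31 with serum, and 2.03 and 2.36 without serum, so that the cordycepin arrays were below all others.

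The genes that MYC is known to activate had a median change near that of all probes. All 60 listed genes (ribosome biogenesis, nucleotide and glucose metabolism, translation and the cell cycle) were tested and 0 were called in the cordycepin effect by limma. At an unadjusted p under 0.05 there were 6, against 31.1% of all probes, and 3 passed the adjusted p, against 19.4% of all probes. Their median log2 change was 0.00, against 0.09 for all probes, and they ranged from −0.9995 to 0.54. At the lower end was Slc2a1, the glucose transporter GLUT1, which was named after its value was seen. Slc2a1 read 5.42, 5.30 and 5.06 with cordycepin plus serum, 6.30, 6.27 and 6.22 with serum, and 5.28 and 5.52 without serum. The serum arrays stood above all others, and the cordycepin and no serum arrays overlapped. Its change was −0.9995 with cordycepin (SE 0.13, adjusted p = 0.000902 by limma), which missed the minimum fold change by the third decimal, and 0.86 with serum (adjusted p = 0.0221 by limma). In the serum effect 0 of the 60 genes were called, against 1.77% of all probes. At an unadjusted p under 0.05 there were 2, against 10.3% of all probes. In cordycepin plus serum against no serum 0 were called, with 4 at an unadjusted p under 0.05, against 26.7% of all probes. E-boxes occurred in the promoter windows of 15 of the 50 listed genes with an entry (30.0%), against 8.09% of all genes.

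Of 10 genes that MYC is known to repress, 7 were tested. None was called in the cordycepin effect, and their median change was −0.22. At an unadjusted p under 0.05 there were 2 of the 7, against 31.1% of all probes. In cordycepin plus serum against no serum 1 of the 7 was called lower, against 3.08% of all probes. That was Gadd45a, a growth arrest gene, at −1.03 (SE 0.28, adjusted p = 0.0396 by limma). Gadd45a read 0.25, 0.87 and 0.70 with cordycepin plus serum, 1.02, 0.32 and 1.14 with serum, and 1.51 and 1.77 without serum. The arrays without serum were the highest, and the other groups overlapped. Its call was lost when cordycepin plus serum replicate 1 (−0.86) or 3 (−1.08), serum replicate 1 (−1.03) or no serum replicate 1 (−1.17) or 2 (−0.90) was left out.

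**Figure D4:**
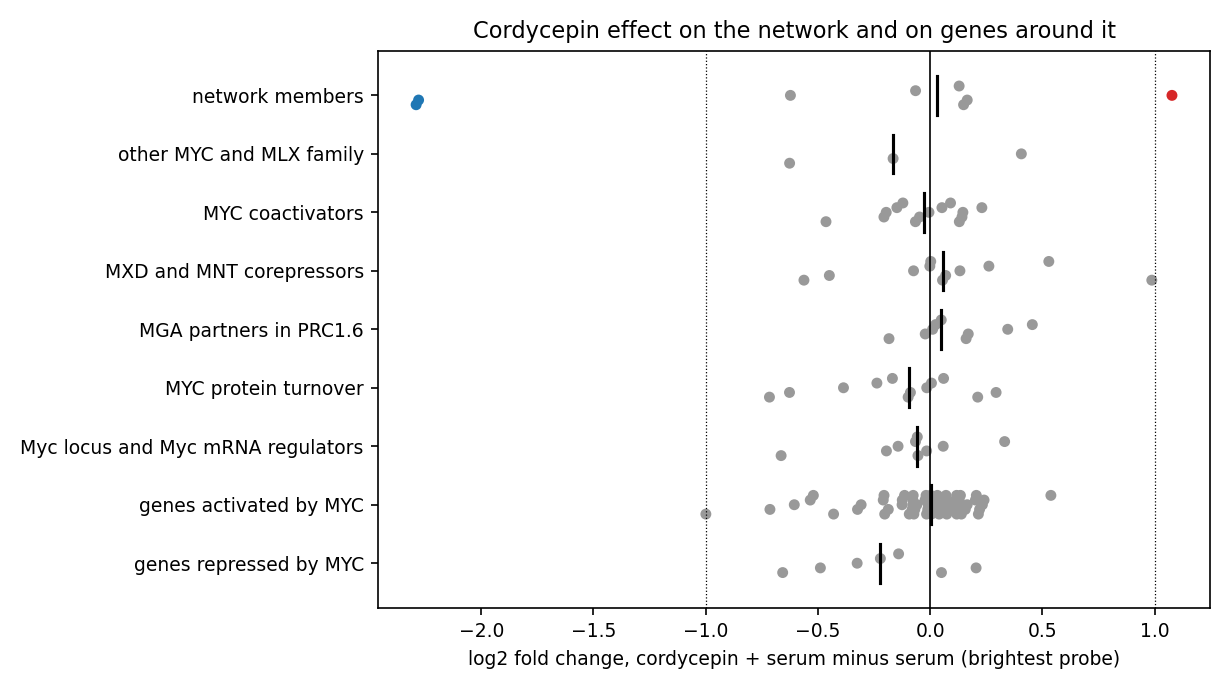
Log2 fold change of the brightest probe of each tested gene (points) in cordycepin plus serum against serum, for the network and 8 lists of genes around it, with the median of each list as a bar; dotted lines mark a change of 1 in size, and blue and red mark genes called lower and higher. Only Myc, Mycn and Mxd1 are coloured, and the 60 genes activated by MYC centre on 0.00.

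The genes whose pattern over the 8 arrays was most like that of Myc were found among 18498 tested probes with a current symbol, by Pearson correlation as a description. They were Rbm33 (r = 0.999), Trim39 (0.995), Setd2 (0.995), Zfp513 (0.992) and Bmyc (0.991). All points share the arrays and the centring, and the cordycepin arrays form a cluster of their own. Bmyc, a MYC relative that lacks the DNA-binding part, read −3.17, −2.41 and −3.40 with cordycepin plus serum, −0.75, −0.94 and −1.09 with serum, and −1.78 and −1.65 without serum. The groups of Bmyc did not overlap and stood in the same order as those of Myc. Its choice by correlation with Myc favours such a likeness, so this is no separate result. The log2 changes with cordycepin were −1.39 for Rbm33, −0.89 for Trim39, −0.30 for Setd2, −1.06 for Zfp513 and −2.06 for Bmyc, so a likeness in shape went with changes of unlike size. The Bmyc probe was dim, and its change was −1.23 after normexp correction.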

How the data were processed

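RNA was measured on 8 Agilent 1-colour mouse arrays. Per the file headers, the authors extracted spot intensity values with Feature Extraction 10.7.3.1, which removes local background and marks outlier spots and spots well above background, with probe positions in mm9. The study's methods name limma and no normalisation or filter. The deposited intensity values were taken to log2 and centred on the 75th percentile of each array's non-control probes, which hides any change common to most transcripts. Control and outlier spots were left out, and spots of a probe were averaged. Tests were run on probes that stood well above background on all arrays of 1 or more groups. A tested probe also needed, on every array, a spot not marked as an outlier. Groups, taken from the labels, were compared in R 4.3.3 by limma 3.58.1, fitting a mean for each group and 1 spread over all 8 arrays. Two-sided p-values were adjusted over all 30859 probes (Benjamini-Hochberg). The number of arrays limits the precision. Genes were counted by their probe of highest mean level, and all probes of members were given. The calculation was tested on simulated data.

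The members, gene lists and tests were chosen with earlier results of these data known. Named genes were all members, called genes of each list (up to 3 per direction), Pvt1, Mlx, Mycl, Zbtb17 and the 5 genes most correlated with Myc. Gene names come from the array design, and 18508 of 18515 RefSeq accessions were matched to a current symbol. Replicate numbers were not used to pair the arrays in the main fit. The alternatives were other background corrections, normalisations, filters, thresholds, fits and blocks, and leaving out each array. Fits within 1 row of the slide, on which all arrays lay, were added after the data were seen.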

Additional observations from a re-analysis of the deposited data

How the results depend on the processing

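Myc and Mycn were called lower with cordycepin against serum under all 21 alternatives, and the number of members called there was 2 to 4. In the serum effect 1 member (Mycn) was called at the study's threshold of an unadjusted p of at most 0.05 with a log2 change of at least 1 in size. Of all probes, 10.3% had an unadjusted p under 0.05 in that comparison, whatever the size of their change. In cordycepin plus serum against no serum 1 member (Mycn) was called within row 2 of the slide, and 2 or 3 when any 1 array was left out. With the replicate number as a block the counts were 3, 0 and 3, and Mxd4 went from 0.058 to −0.048 against no serum. Correlations of same-numbered arrays lay between −0.17 and 0.23, with 2 of 7 above 0.1. With so few arrays in a group they cannot settle whether the numbers pair the arrays. The block ended the call of Gadd45a (adjusted p = 0.0587 by limma). Spike-in centring moved the median of all probes from −0.01 to −0.35 in the serum effect and from 0.07 to −0.31 against no serum.

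Changes of sign concerned small values that were not called. In the cordycepin effect they were Max within row 2 (−0.017), Mxd3 with quantile normalisation (−0.082), and with 1 array left out Mxd3 (−0.0062 to 0.30) and Mga (−0.27 to 0.10). In the serum effect they were Max with normexp (−0.017), quantile normalisation (−0.022), spike-in centring (−0.33) and within row 2 (−0.20), Mxd1 with spike-in centring (−0.042 downstream and −0.12 upstream), Mxd4 and Mnt within row 2 (0.27 and 0.081) and Mga within row 1 (0.10). With 1 array left out, the serum effect spanned −0.14 to 0.15 for Max, −0.40 to 0.18 for Mxd4, −0.049 to 0.042 for Mnt and −0.29 to 0.019 for Mga. Against no serum they were Max with spike-in centring (−0.25) and within row 2 (−0.21), Mxd4 upstream with spike-in centring (−0.32) and within row 1 (−0.30), and Mxd4 downstream with normexp (−0.029), quantile normalisation (−0.0043), spike-in centring (−0.38) and within row 2 (−0.073). With 1 array left out, these spanned −0.010 to 0.28 for Max, −0.23 to 0.35 for Mxd4 upstream and −0.078 to 0.078 for Mxd4 downstream. The genes activated by MYC had 1 call (Slc2a1) in the cordycepin effect with normexp, quantile normalisation, the row as a block or any of 3 arrays left out. The cause of these shifts was not tested. Signals near background limit Mycn, Mxd3, Mxi1 and Bmyc, and also the probes called lower downstream of Myc.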

Other observations

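Around the Myc probe, 41 probes of the array lie within 300 kb on either side, all downstream, and 34 were tested. This window was chosen after the data were seen. With cordycepin against serum, 6 of them were called lower, against 2.98% of all probes, 2 were called higher, against 7.57%, and 26 were not called. The 6 called lower were dim with cordycepin, at −6.88 to −2.82, so background limits the size of their changes. The 3 nearest tested probes, designed to 1 long non-coding RNA interval on the plus strand 49.4 to 49.5 kb downstream, fell by 1.52, 1.58 and 1.27 (adjusted p = 0.0146, 0.00122 and 0.0098 by limma). A pair of probes 97.6 and 98.0 kb downstream, on opposite strands, had log2 changes of −1.41 and −1.46. Between them, another tested probe of the same interval changed by −0.22 (adjusted p = 0.592 by limma) and 4 were not tested. Those 4 read −7.53 to −5.14 over all arrays, a range that held the cordycepin values of the pair. A probe 221.6 kb downstream on the minus strand fell by 1.01. The 2 probes called higher lay 262.9 and 264.6 kb downstream and rose by 1.27 and 1.09.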
